A study of Homo sapiens with 12 samples.

Results

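The genes described here are 10 that act on or scaffold the serine/arginine-rich (SR) splicing factors in the nucleus. They are the CLK kinases CLK1, CLK2, CLK3 and CLK4, the SRPK kinases SRPK1 and SRPK2, and the nuclear speckle proteins SON, SRRM1, SRRM2 and PNISR. They were chosen by name and function, though with earlier results of these data known, and are 10 of the 63541 gene IDs in the count table. All 10 passed the filter on low counts and were tested, among 21999 genes.

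The study asked how loss of snaR-A, a short noncoding RNA made by RNA polymerase III in testis and in tumours, affects mRNA processing. The cells were HEK293T, a line derived from human embryonic kidney that carries the SV40 large T antigen. All 12 cultures were transfected with siRNA at 12.5 nM and collected after 48 h. The groups of 3 libraries each received a scramble siRNA, si-snaR-A#1, si-snaR-A#2 or si-snaR-A#3. The last 3 are siRNAs against snaR-A, called siRNA #1, siRNA #2 and siRNA #3 from here on. The study aimed them near the 3′ end of snaR-A, and their listed sequences overlap, so they do not stand for separate target sites. RNA was depleted of rRNA, enriched for poly(A)+ RNA and sequenced from a strand-marking kit. The study's methods call the replicates biological and place them on a single day, and the labels give no batch. The 3 siRNA comparisons share the same scramble libraries, so their values are set side by side and are not independent of each other.

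SR proteins bind exons and help recruit the splicing machinery, and their activity and location depend on phosphorylation of their RS domains. SRPK kinases phosphorylate them largely in the cytoplasm and promote their import, and CLK kinases phosphorylate them further in the nucleus and release them from speckles. SON and SRRM2 form the core of nuclear speckles. CLK transcripts are known for introns that stay in polyadenylated nuclear RNA, a store from which mature mRNA can be made when CLK activity falls, and for skipping of exon 4, which removes the kinase domain from the product.

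Because that regulation sits around exon 4, the splice sites of the introns on either side of it are shown for the CLK genes in which GENCODE 44 annotates both introns inside a retained-intron transcript. The sequences are from the GRCh38 genome (hg38), 5′ to 3′ on the strand of the gene. Donor windows hold the last 3 exon bases and the first 13 intron bases, and acceptor windows the last 24 intron bases and the first 3 exon bases. Capitals mark the GT that opens and the AG that closes the intron. Intron 3 of CLK1 spans chr2:200860216-200861237 and intron 4 chr2:200859747-200860124, both on the minus strand. In CLK4 the same introns span chr5:178617435-178618555 and chr5:178616949-178617343, minus strand. In CLK3 they span chr15:74620226-74622119 and chr15:74622217-74622493, plus strand.
CLK1 intron 3 donor: gggGTatgaacgtttt
CLK4 intron 3 donor: tcgGTatgattggttt
CLK3 intron 3 donor: tcgGTgagtggtagcc
CLK1 intron 3 acceptor: gtgccgcccacttgacgtttccAGaag
CLK4 intron 3 acceptor: ggtgctgcccacttgccgttccAGaag
CLK3 intron 3 acceptor: cgtttcggggggcggtgcatgcAGaga
CLK1 intron 4 donor: gatGTatagaatattt
CLK4 intron 4 donor: gatGTatagaatattt
CLK3 intron 4 donor: gatGTacagccacctt
CLK1 intron 4 acceptor: ctgagatttatttctctcttttAGatg
CLK4 intron 4 acceptor: cctctttttccctcctcactctAGatg
CLK3 intron 4 acceptor: tgcccaatttcttttctctcctAGatg

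The intron 4 donor windows of CLK1 and CLK4 were identical at 16 of 16 bases, and those of CLK1 and CLK3 at 10 of 16. At the intron 3 donor CLK1 matched CLK4 at 11 of 16 bases and CLK3 at 4 of 16. At the intron 3 acceptor, compared position by position with no gaps allowed, CLK1 matched CLK4 at 15 of 27 bases and CLK3 at 7 of 27. The intron 4 acceptor went the other way, with CLK1 matching CLK4 at 13 of 27 bases and CLK3 at 16 of 27. Exon 4 itself is 91 bases long in CLK1 and in CLK4, and 97 bases in CLK3. In each canonical transcript that exon length is no multiple of 3. Over the canonical transcripts of the 10 genes, 21 of 130 introns lie inside an annotated retained-intron transcript. They include 4 of 12 introns in CLK1, 4 of 12 in CLK4, 2 of 12 in CLK3 and 0 of 12 in CLK2. Among the speckle proteins, SRRM2 has 4 of 14, PNISR 4 of 11, SRRM1 2 of 16 and SON 0 of 11, while SRPK1 has 1 of 15 and SRPK2 0 of 15. An intron was counted only where 1 exon of such a transcript spans it whole. SON and SRPK2 do have annotated retained-intron transcripts, 6 and 2 of them, but these span no whole intron of the canonical transcript. CLK2 has 0 such transcripts. The 21 introns had a median GC content of 34.0% and a median length of 639 bases, beside 40.5% and 1085 bases for the other introns. The gene counts used here sum all transcripts of a gene, so they do not measure retention of any of these introns, and a gene's count can include transcripts that are not translated.

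Library totals ran from 120 M to 180 M estimated counts. The markers of the HEK293 lineage NEFM and NEFL were at 244 to 462 and 137 to 233 CPM (counts scaled to library size), KRT18 was at 27.9 to 34.9 CPM, and KRT8, PAX2 and INA were lower, at 3.46 to 12.4 CPM. Of 6 markers of cells the culture should not hold, HBB was at 0 in every library, PTPRC, ALB, COL1A2 and MYH7 stayed at or under 0.134 CPM, and GFAP was at 0.654 to 2.61 CPM. The first principal component, 55.5% of the variance, set the 3 siRNA #1 libraries (scores −30.5 to −24.5) apart from the other 9 (3.46 to 12.7). A gene was called at a Benjamini-Hochberg adjusted p under 0.05 in edgeR's quasi-likelihood test, and the share of all tested genes called is given beside each count as its background. The snaR-A RNA itself was not analysed here, since GENCODE 44 lists no gene under that name.

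With siRNA #1, 6 of the 10 genes were lower than in scramble (background 23.3%) and 1 was higher (background 21.9%). These 7 of 10 stand beside 45.2% of all tested genes called in either direction, or 63.3% of the 10198 genes whose mean reached 10 CPM, a level that all 10 exceed. With siRNA #2, 2 rose (background 13.7%) and 2 fell (12.1%), where 25.8% of genes were called. With siRNA #3, 3 rose (background 16.5%) and 1 fell (13%), where 29.4% were called. Averaged over the 3 siRNAs, 2 rose (background 15.6%) and 4 fell (16.6%), where 32.2% were called. At least 1 siRNA called 7 of the 10 genes, beside 59.8% of all tested genes. Directly between siRNAs, 6 genes were lower with siRNA #1 than with siRNA #2 and none higher (background 23.0% and 23.7%, 46.7% in all), and 6 were lower than with siRNA #3 and none higher (24.8% and 23.8%, 48.6% in all). Among genes of at least 10 CPM, 37.7% and 40.7% were lower in these comparisons, in the same order, and 26.3% and 25.4% higher. Comparing siRNA #2 to siRNA #3, 2 genes were higher and 1 lower (6.52% and 9.03%, 15.6% in all). The median log2 fold change of the 10 genes was −0.21 with siRNA #1, 0.03 with siRNA #2 and 0.07 with siRNA #3, where the medians over all tested genes were −0.02, −0.03 and −0.03. The counts against scramble are near the shares called among genes of at least 10 CPM (63.3%, 40.2% and 46.6% for the siRNAs in order), so the genes are described one by one. Where the libraries of single groups are said below to lie apart, this is a description. The share of all tested genes with such a separation was not counted. The largest differences from scramble were those of CLK1, CLK4 and SRRM1 with siRNA #1 and of SRPK1 with siRNA #3, and SON, SRRM2 and PNISR were called in no comparison, although some alternatives called PNISR and SON.

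**Figure D1:**
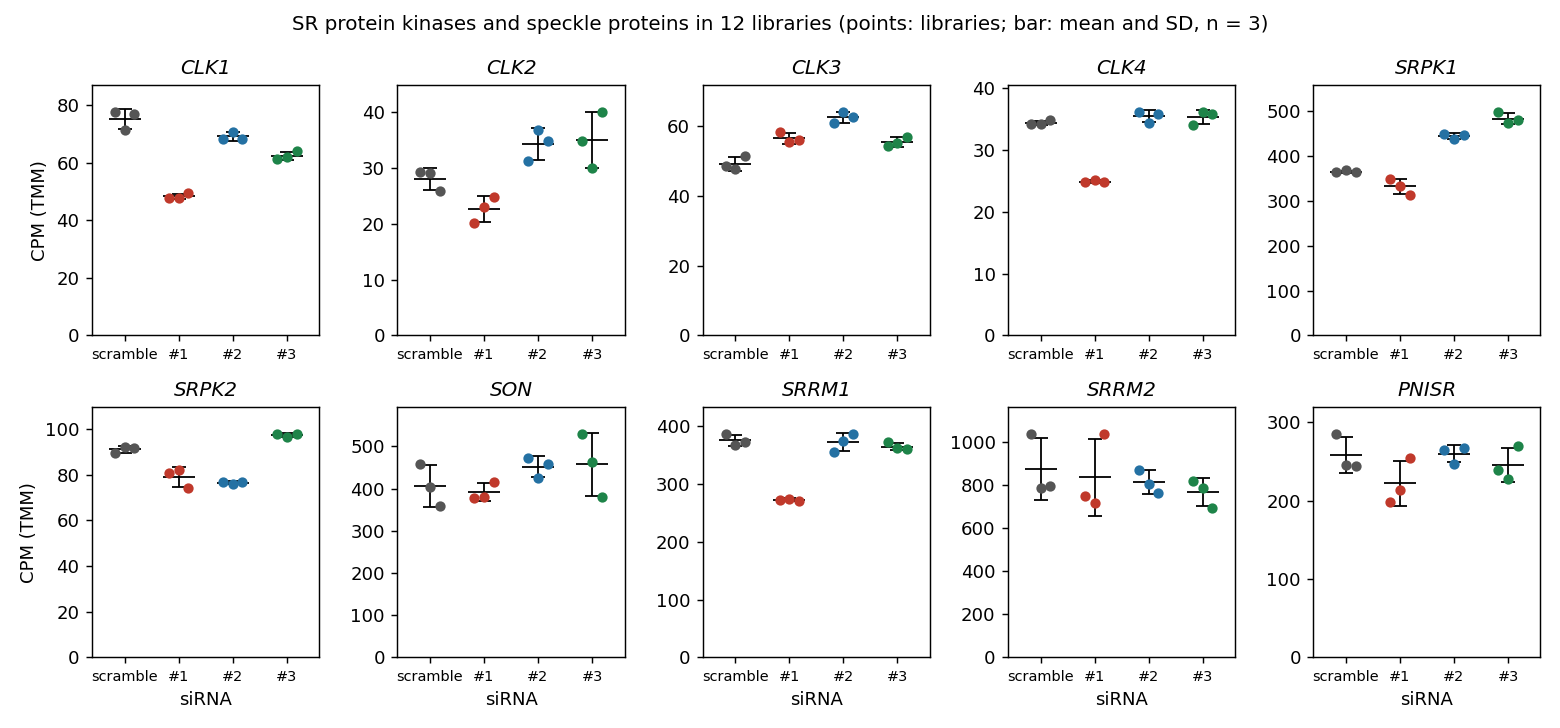
CPM (counts scaled to library size by TMM, vertical axis from 0) of the 10 genes in the scramble group and with siRNA #1, #2 and #3; each point is a library and the bar gives the mean and SD of 3. CLK1 sits between 47.7 and 49.4 CPM with siRNA #1 and between 71.3 and 77.7 CPM in scramble, while SRRM2 spreads from 788 to 1040 CPM within scramble alone.

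CLK1, at chr2:200853009-200864691 on the minus strand, is a dual-specificity kinase of SR proteins whose own transcript is a known target of CLK activity. It measured 77.7, 71.3 and 77.0 CPM in the scramble libraries and 47.7, 47.8 and 49.4 CPM with siRNA #1. With siRNA #2 it measured 68.3, 70.8 and 68.2 CPM, and with siRNA #3 61.2, 62.0 and 63.9 CPM. All 9 siRNA libraries lay below all 3 scramble libraries, as for 5.50% of tested genes, and the siRNA #1 libraries lay below every other. CLK1 fell by 35.9% with siRNA #1 (log2 fold change −0.64, SE 0.04, adjusted p = 6.18e-08). With siRNA #3 it fell by 17.2% (−0.27, SE 0.04, adjusted p = 2.18e-04). With siRNA #2 it fell by 8.28% (−0.12, SE 0.04, adjusted p = 0.0345), a call that was lost under 13 of 22 alternatives, DESeq2 among them (adjusted p = 0.0542). Leaving out scramble replicate 3 gave the smallest siRNA #2 difference, −0.09 (adjusted p = 0.179). A gene called lower with all 3 siRNAs is uncommon, at 2.84% of tested genes. The siRNAs also differed from each other, with CLK1 lower under siRNA #1 than under siRNA #2 (−0.52, adjusted p = 3.86e-07) and siRNA #3 (−0.37, adjusted p = 6.45e-06).

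CLK4, at chr5:178602664-178630615 on the minus strand, is the closest paralog of CLK1. The scramble libraries gave 34.2, 34.3 and 34.8 CPM, and the siRNA #1 libraries 24.8, 25.1 and 24.8 CPM. With siRNA #2 the values were 36.1, 34.4 and 35.9 CPM, and with siRNA #3 34.0, 36.2 and 35.8 CPM. The siRNA #1 libraries were separate from all others, and the remaining groups overlapped. CLK4 fell by 27.6% with siRNA #1 (−0.47, SE 0.04, adjusted p = 6.01e-07). The differences with siRNA #2 (0.04, 95% interval −0.04 to 0.12) and siRNA #3 (0.04, −0.04 to 0.12) were not called. The gap between siRNA #1 and the other two was as wide, at −0.51 (adjusted p = 2.72e-07) and −0.50 (adjusted p = 2.48e-07). Among the 5285 distinct 31-base stretches of CLK1 transcripts, 40 also occur in CLK4, so few stretches could be assigned to either gene.

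CLK2, at chr1:155262868-155278491 on the minus strand, is a CLK kinase with no annotated retained intron. It measured 29.3, 29.1 and 25.9 CPM in scramble and 20.2, 23.1 and 24.8 CPM with siRNA #1. With siRNA #2 the values were 31.2, 36.9 and 34.8 CPM, and with siRNA #3 34.9, 30.1 and 40.1 CPM. Scramble stood between, above every siRNA #1 library and below every library of the other siRNAs. It fell by 19.3% with siRNA #1 (−0.31, SE 0.10, adjusted p = 0.0268) and was 24.5% higher with siRNA #3 (0.32, SE 0.10, adjusted p = 0.0350). The siRNA #2 difference, 0.29 (95% interval 0.06 to 0.51), was not called at an adjusted p of 0.0585, but 11 of 22 alternatives called it, DESeq2 (adjusted p = 0.00985) and the edgeR exact test (0.00131) among them. These calls against scramble rest on few libraries. Without siRNA #1 replicate 1, replicate 2 of that group, or scramble replicate 1 or 2, the siRNA #1 call was lost (adjusted p = 0.114, 0.0535, 0.0812 and 0.0808), and without siRNA #3 replicate 3 the siRNA #3 difference was 0.21 (adjusted p = 0.145). The siRNA #3 call was lost in 7 of 22 alternatives, among them each library of scramble left out (adjusted p = 0.0555, 0.0575 and 0.113), siRNA #3 replicate 1 left out (0.0714) and upper quartile scaling (0.0848). The direct difference between siRNAs was larger and was kept in all 22 alternatives. CLK2 was lower with siRNA #1 than with siRNA #2 (−0.60, adjusted p = 3.94e-04) and than with siRNA #3 (−0.63, adjusted p = 2.58e-04). A gene called in opposite directions by a pair of siRNAs is seen for 8.41% of tested genes. Its transcripts share 8.37% of their 31-base stretches with the pseudogene CLK2P1, which reached at most 0.0129 CPM.

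CLK3, at chr15:74598500-74645414 on the plus strand, is the CLK family member that rose with all 3 siRNAs. The scramble libraries gave 48.6, 47.8 and 51.6 CPM, those of siRNA #1 58.4, 55.5 and 56.0 CPM. With siRNA #2 it measured 61.1, 64.2 and 62.6 CPM, and with siRNA #3 54.4, 55.3 and 57.1 CPM. Every siRNA library was above every scramble library, as for 6.62% of tested genes, and the siRNA #2 libraries were the highest. CLK3 rose with siRNA #1 (0.20, SE 0.04, adjusted p = 0.00129), with siRNA #2 (0.34, SE 0.04, adjusted p = 4.81e-05) and with siRNA #3 (0.17, SE 0.04, adjusted p = 0.00606). The background for a gene called higher with all 3 siRNAs is 5.16%. With offsets for GC content and length the siRNA #1 rise shrank to 0.03 (adjusted p = 0.718). CLK3 has an exonic GC content of 54.1%, beside 38.2% in CLK1 and 37.8% in CLK4.

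**Figure D2:**
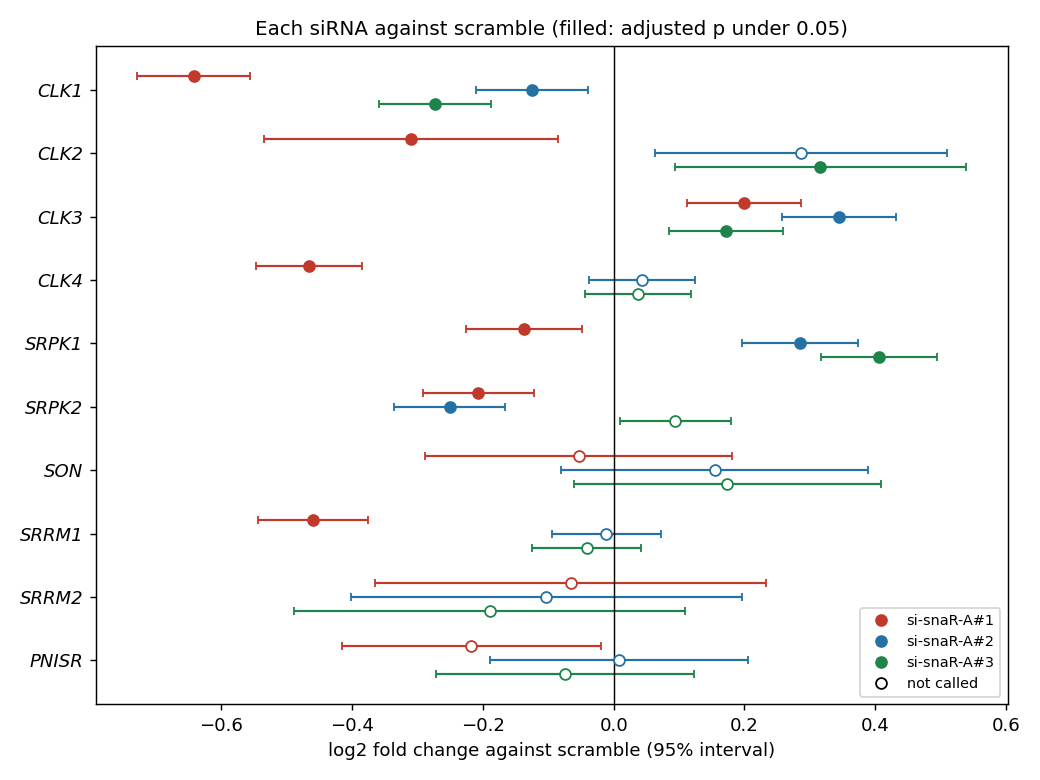
Log2 fold change of each gene against scramble (horizontal axis, 95% interval) for siRNA #1 in red, siRNA #2 in blue and siRNA #3 in green; filled points have an adjusted p under 0.05. CLK1 lies left of 0 with every siRNA (−0.64, −0.12 and −0.27), CLK3 lies right of 0 with every siRNA, and the intervals of CLK4 and SRRM1 leave out 0 only in the siRNA #1 comparison (−0.47 and −0.46).

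Summed over the 4 CLK genes, the level was 187 ± 4.02 CPM in scramble (SD, n = 3), 152 ± 2.09 with siRNA #1, 202 ± 4.75 with siRNA #2 and 188 ± 7.48 with siRNA #3. The sum was lowest with siRNA #1, and in the siRNA #3 group it lay within 1 SD of scramble although the make-up of the family had moved. CLK1 supplied 40.2% ± 1.01 of this CPM sum in scramble, 31.7% ± 0.178 with siRNA #1, 34.3% ± 0.445 with siRNA #2 and 33.1% ± 0.659 with siRNA #3. The share of CLK3 was 26.3% ± 0.844 in scramble and 37.1% ± 1.32, 31.1% ± 0.0453 and 29.5% ± 0.564 with the 3 siRNAs in order. CLK2 supplied 15.0% ± 1.21 in scramble and 14.9% ± 1.34, 17.0% ± 1.03 and 18.6% ± 2.01 with the siRNAs. CLK4 stayed between 16.3% ± 0.314 (siRNA #1) and 18.8% ± 0.819 (siRNA #3). Shares of a CPM sum depend on transcript length and are compared here between groups, not between genes.

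**Figure D3:**
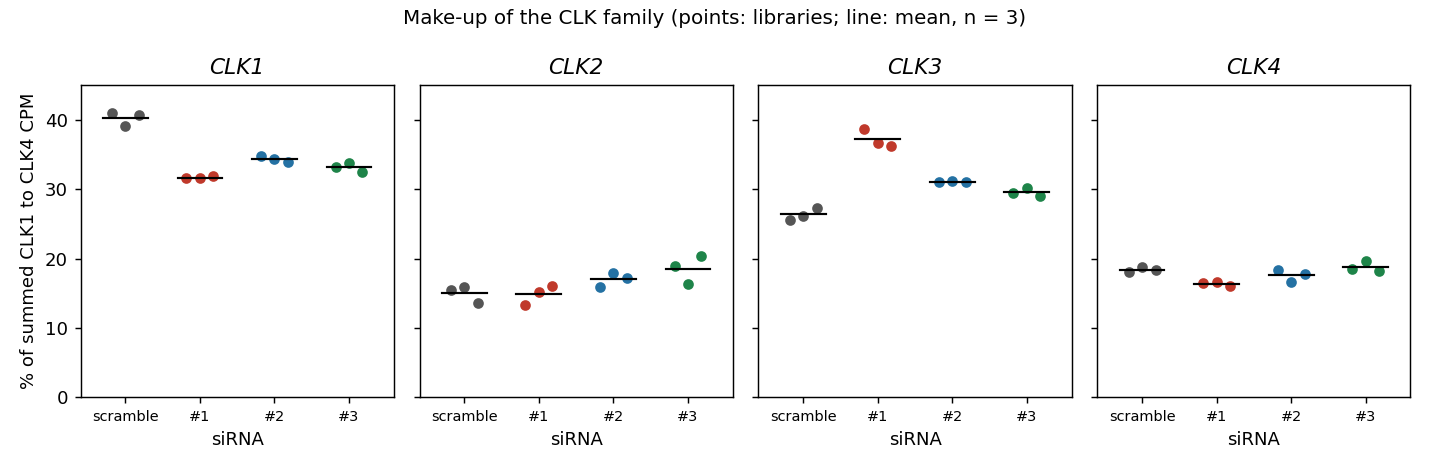
Share of each CLK gene in the summed CPM of CLK1 to CLK4 (vertical axis, percent) by siRNA; points are libraries and lines group means of 3. The CLK1 share is highest in scramble (mean 40.2%) and the CLK3 share is highest with siRNA #1 (mean 37.1%).

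SRPK1, at chr6:35832966-35921342 on the minus strand, encodes the main cytoplasmic SR protein kinase. It measured 364, 368 and 364 CPM in scramble, 348, 334 and 314 CPM with siRNA #1, 450, 438 and 447 CPM with siRNA #2, and 499, 474 and 480 CPM with siRNA #3. No 2 groups overlapped, a pattern whose share among all tested genes was not counted. SRPK1 rose with siRNA #3 by 32.4% (0.41, SE 0.04, adjusted p = 1.22e-05) and with siRNA #2 by 21.8% (0.28, SE 0.04, adjusted p = 2.45e-04). With siRNA #1 it fell by 9.06% (−0.14, SE 0.04, adjusted p = 0.0152), a call that was lost with only those 2 groups in the fit (adjusted p = 0.106), with the edgeR exact test (0.0829), with GC and length offsets (0.131) and without scramble replicate 2 (difference −0.13). Only 1.99% of tested genes were called lower with siRNA #1 and higher with both of the others. The direct differences of siRNA #1 from siRNA #2 (−0.42, adjusted p = 2.95e-06) and from siRNA #3 (−0.54, adjusted p = 2.79e-07) were kept in every alternative. Between siRNA #2 and siRNA #3 the difference of −0.12 was not called, but 9 of 22 alternatives called it. On the opposite strand, LHFPL5 overlaps 28.1% of the exon length of SRPK1, but LHFPL5 itself reached 0.637 CPM at most.

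SRPK2, at chr7:105110704-105399308 on the minus strand, encodes the related kinase that is most abundant in brain. The scramble libraries gave 89.3, 92.2 and 91.5 CPM, and those of siRNA #1 80.7, 81.9 and 73.9 CPM. With siRNA #2 it measured 76.9, 75.7 and 76.9 CPM, and with siRNA #3 97.5, 96.2 and 97.8 CPM. The first 2 siRNA groups lay below scramble and the last above it. It fell with siRNA #1 (−0.21, SE 0.04, adjusted p = 8e-04) and with siRNA #2 (−0.25, SE 0.04, adjusted p = 4.54e-04). The siRNA #3 difference of 0.09 (95% interval 0.01 to 0.18, adjusted p = 0.0917) was not called. Between siRNAs, SRPK2 was lower with siRNA #2 than with siRNA #3 (−0.34, adjusted p = 9.95e-05) and lower with siRNA #1 than with siRNA #3 (−0.30, adjusted p = 3.52e-05). The CPM ratio of SRPK1 to SRPK2 was 4.01 ± 0.0521 in scramble (SD, n = 3), 4.22 ± 0.119 with siRNA #1, 5.82 ± 0.0344 with siRNA #2 and 4.98 ± 0.116 with siRNA #3. Thus the 2 kinases moved apart most with siRNA #2, where one rose and the other fell.

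SRRM1, at chr1:24631716-24673281 on the plus strand, encodes a splicing coactivator that bridges SR proteins on exons and the machinery at the splice sites. It measured 386, 368 and 373 CPM in scramble and 273, 275 and 271 CPM with siRNA #1. With siRNA #2 the values were 356, 375 and 387 CPM, and with siRNA #3 373, 362 and 360 CPM. Only the siRNA #1 libraries stood apart, below the other 9. SRRM1 fell by 27.3% with siRNA #1 (−0.46, SE 0.04, adjusted p = 8.61e-07). The siRNA #2 difference was −0.01 (95% interval −0.10 to 0.07) and that with siRNA #3 −0.04 (−0.12 to 0.04), and neither was called. Against those siRNAs directly, SRRM1 was lower with siRNA #1, at −0.45 (adjusted p = 1.03e-06) and −0.42 (adjusted p = 1.63e-06). Other annotated genes hold 19.4% of the 31-base stretches of SRRM1, and the 3 that share most of them reached at most 0.288 CPM.

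SON, at chr21:33543038-33577481 on the plus strand, encodes the scaffold protein that marks nuclear speckles. It measured 459, 403 and 358 CPM in scramble, 378, 381 and 416 CPM with siRNA #1, 472, 426 and 459 CPM with siRNA #2, and 530, 464 and 381 CPM with siRNA #3. Replicates spread widely and every siRNA group overlapped scramble. The differences were −0.05 (95% interval −0.29 to 0.18) with siRNA #1, 0.15 (−0.08 to 0.39) with siRNA #2 and 0.17 (−0.06 to 0.41) with siRNA #3. Without siRNA #3 replicate 3, the lowest of its group, the siRNA #3 difference was 0.29 and was called (adjusted p = 0.0392). Between siRNA #1 and siRNA #3 the difference of −0.23 (adjusted p = 0.104) was called in 4 of 22 alternatives, DESeq2 among them (adjusted p = 0.0426). Between siRNA #1 and siRNA #2 that of −0.21 (adjusted p = 0.138) was called in 2, the edgeR exact test (0.00396) and the fit of those groups alone (0.0224).

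SRRM2, at chr16:2752626-2772538 on the plus strand, encodes the other core speckle protein, a very large RS-rich polypeptide. The scramble libraries gave 1040, 788 and 796 CPM, and those of siRNA #1 751, 719 and 1040 CPM. With siRNA #2 it measured 874, 808 and 767 CPM, and with siRNA #3 821, 790 and 694 CPM. In the first 2 of these groups 1 library each, scramble replicate 1 and siRNA #1 replicate 3, lay far above its partners. The differences were −0.07 (95% interval −0.36 to 0.23) with siRNA #1, −0.10 (−0.40 to 0.20) with siRNA #2 and −0.19 (−0.49 to 0.11) with siRNA #3. These intervals are the widest of the 10 genes, and a change of the size seen for CLK4 would lie outside all but the last.

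PNISR, at chr6:99397629-99425331 on the minus strand, encodes an RS-rich protein found in speckles. It measured 285, 245 and 244 CPM in scramble and 198, 213 and 254 CPM with siRNA #1. With siRNA #2 the values were 265, 247 and 267 CPM, and with siRNA #3 239, 228 and 269 CPM. Again scramble replicate 1 and siRNA #1 replicate 3 were the highest of their groups. With siRNA #1 the difference was −0.22 (95% interval −0.42 to −0.02, adjusted p = 0.0693). Without siRNA #1 replicate 3 it was −0.33 and was called (adjusted p = 0.00443), and DESeq2 (adjusted p = 0.0385) and the fit with no filter on low counts (0.0288) also called it. Between siRNA #1 and siRNA #2 the difference of −0.23 (adjusted p = 0.0589) was called in 10 of 22 alternatives, with adjusted p down to 0.00118, and between siRNA #1 and siRNA #3 that of −0.14 (adjusted p = 0.217) in 2. With siRNA #2 the difference was 0.01 (−0.19 to 0.21) and with siRNA #3 −0.07 (−0.27 to 0.12).

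Those 2 libraries also held the largest share of counts in genes annotated as lncRNA, 1.92% in scramble replicate 1 and 2.12% in siRNA #1 replicate 3, beside 1.28% to 1.69% in the other 10. The part of this share in the values of SRRM2 and PNISR was not tested. Leaving both libraries out, as chosen after seeing the data, gave PNISR −0.26 (adjusted p = 0.0128) with siRNA #1, and SRRM1 and CLK4 were called as before. In bulk RNA, fewer cells with a transcript and less of it per cell cannot be told apart.

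**Figure D4:**
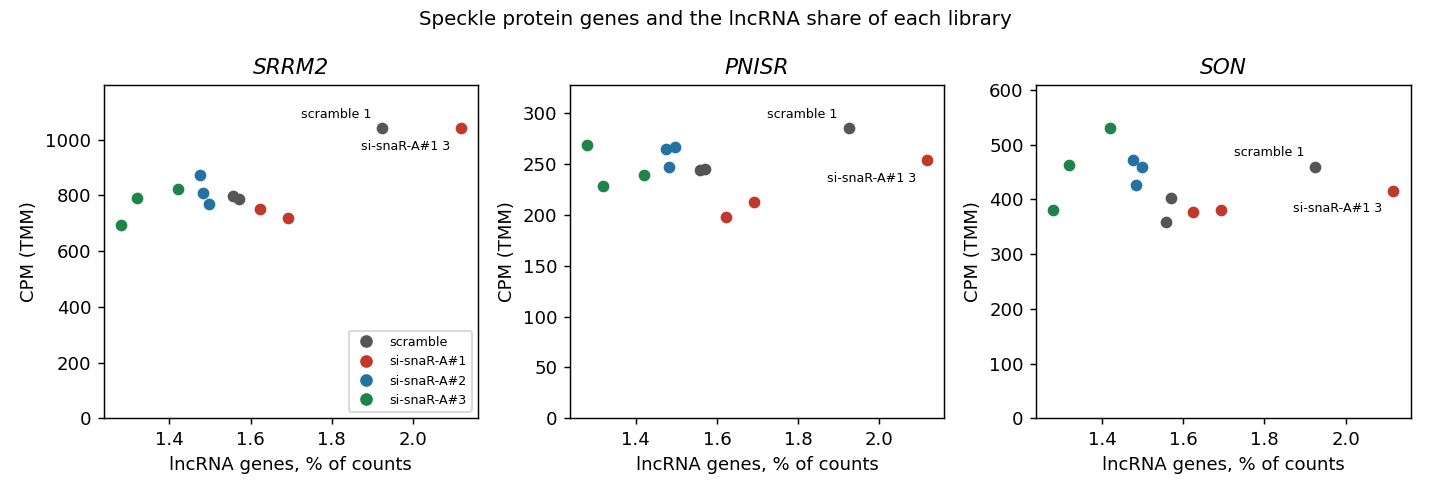
CPM of SRRM2, PNISR and SON (vertical axes from 0) against the percent of each library's counts in lncRNA genes (horizontal axis); each point is 1 of 12 libraries, coloured by siRNA. Scramble replicate 1 (1.92%) and siRNA #1 replicate 3 (2.12%) lie to the right of the others and hold the highest SRRM2 values, 1040 CPM in both. The other genes differ from this. PNISR in siRNA #1 replicate 3 (254 CPM) is below siRNA #3 replicate 3 (269 CPM at 1.28%). SON is highest in siRNA #3 replicate 1 (530 CPM at 1.42%).

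Per kilobase of canonical transcript, the order of the mean scramble levels was SRRM1 (101 ± 2.45 CPM per kb, SD, n = 3), SRRM2 (96.9 ± 16.1), SRPK1 (84.0 ± 0.483), PNISR (50.5 ± 4.53), SON (48.4 ± 6.06), CLK1 (40.8 ± 1.88), CLK3 (26.6 ± 1.08), SRPK2 (24.7 ± 0.407), CLK4 (13.7 ± 0.141) and CLK2 (13.1 ± 0.909). On this scale SRRM2 lay within its own SD of both SRRM1 and SRPK1, PNISR and SON differed by less than their SDs, and CLK4 and CLK2 by less than the SD of CLK2 but more than that of CLK4. With siRNA #1, CLK3 at 30.5 ± 0.835 CPM per kb was above CLK1 at 26.1 ± 0.506, the reverse of their order in scramble. The order between genes depends on the length used. Per kilobase of the longest annotated transcript, CLK3 was at 4.70 in scramble and 5.39 with siRNA #1. CLK1 was above it in both, at 23.5 and 15.0. SRPK1 had the highest mean with siRNA #3, at 111 ± 2.99 CPM per kb. In the siRNA #2 group it stood at 102 ± 1.46 CPM per kb, within the SD of SRRM1 at 99.8 ± 4.25.

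Across the 12 libraries, 1 gene was picked for each of the 10 as the most like it in log2 CPM out of all those averaging 10 CPM or more. For CLK1 it was SUN1 (Pearson r = 0.985), and for CLK4 DYNLT1 (0.995). For CLK2 it was MCEE (0.951) and for CLK3 PFKL (0.973). SRPK1 was most like KMT5B (0.996) and SRPK2 most like IGF2BP3 (0.978). For the speckle proteins the genes were BIRC6 for SON (0.938), CENPK for SRRM1 (0.989), NBPF19 for SRRM2 (0.930) and CCDC14 for PNISR (0.958). Among the 10 themselves the closest pair was CLK4 and SRRM1 (0.963), and SRRM1 was also the closest to CLK1 (0.926). CLK3 and SRPK2 ran most nearly opposite (−0.61). These values describe 12 libraries in 4 groups, 1 of which stood apart from the rest, so genes with like values share that structure.

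The substrates and partners of these kinases are given from lists by function. The list of 14 SR proteins counts the SR-like TRA2A and TRA2B among them. Of the 14, 12 were lower and 1 higher with siRNA #1, beside backgrounds of 23.3% lower and 21.9% higher. Among genes of at least 10 CPM, 33.3% were lower and 30% higher. The median log2 fold change of the SR proteins was −0.37, beside −0.02 over all tested genes. SRSF11 measured 395, 373 and 365 CPM in scramble and 215, 223 and 232 CPM with siRNA #1. The only SR protein that rose was SRSF8 (0.28, adjusted p = 3.74e-04), and SRSF2, which marks speckles as SC35, was not called (−0.10, adjusted p = 0.0605). With siRNA #2, 3 were lower (background 12.1%) and 1 higher (13.7%), with a median of −0.05. With siRNA #3, 4 were lower (13%) and 6 higher (16.5%), with a median of 0.08. Averaged over the 3 siRNAs, 9 fell (16.6%) and 1 rose (15.6%), with SRSF11 (−0.35, adjusted p = 6.21e-06) and SRSF12 (−0.31, adjusted p = 1.86e-05) lowest. With siRNA #1, 12 of the 14 SR proteins were thus lower, as CLK1, CLK4 and SRRM1 were.

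The list of other kinases, cyclins and phosphatases of SR proteins holds 12 genes, of which 3 were lower (background 23.3%) and 1 higher (21.9%) with siRNA #1 (median −0.11). With siRNA #2, 1 was lower (12.1%) and 1 higher (13.7%), and with siRNA #3, 3 were lower (13%) and 1 higher (16.5%). For the mean of the siRNAs 4 fell (16.6%) and 2 rose (15.6%). Counts this small do not set a list of 12 apart from the background. In the mean of the siRNAs, the largest falls were those of CDK11A (−0.30, adjusted p = 0.0350) and CCNL1 (−0.25, adjusted p = 0.00571). CDK11A is a cyclin-dependent kinase that acts in splicing, and CCNL1 is its cyclin partner. PPM1G (0.16, adjusted p = 0.00754) and PPP1R8 (0.15, adjusted p = 0.00214) rose in the same mean. PPM1G is a phosphatase of splicing complexes, and PPP1R8 is a nuclear regulator of protein phosphatase 1. CDK11A has a near-identical copy, CDK11B, between which reads may be split.

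Of 29 other speckle or RS-rich proteins, 10 were lower (background 23.3%) and 6 higher (21.9%) with siRNA #1 (median −0.08). With siRNA #2, 5 were lower (12.1%) and 2 higher (13.7%), and with siRNA #3, 2 were lower (13%) and 6 higher (16.5%). For the mean of the siRNAs 6 fell (16.6%) and 6 rose (15.6%). With siRNA #1, 33.3% of genes of at least 10 CPM were lower, close to the 10 of 29. Averaged over the 3 siRNAs, RNPS1 (0.26, adjusted p = 6.88e-05) and LUC7L2 (0.19, adjusted p = 3.91e-04) rose. RNPS1 is a component of the exon junction complex's periphery, and LUC7L2 is a U1 snRNP-associated protein. In the same mean, ERH (−0.25, adjusted p = 1.77e-04) and SREK1 (−0.24, adjusted p = 1.98e-04), an SR-like protein, fell.

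PABPN1, the nuclear poly(A)-binding protein, is from a list of genes known for introns detained in the nucleus, as CLK1 and CLK4 are. It measured 224, 213 and 218 CPM in scramble and 72.3, 74.1 and 84.1 CPM with siRNA #1 (−1.51, adjusted p = 1.85e-09). The siRNA #2 libraries gave 199, 189 and 189 CPM (−0.18, adjusted p = 0.0324), and with siRNA #3 206, 211 and 228 CPM (−0.02, adjusted p = 0.798, not called). PABPN1 was thus lowest in the same libraries as CLK4 and SRRM1. It does not stand for its list. Of the 6 genes listed, 2 were lower (background 23.3%) and 1 higher (21.9%) with siRNA #1, with a median of −0.03. On the same strand, BCL2L2-PABPN1 overlaps 39.3% of the exon length of PABPN1, so reads may be split between them.

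**Figure D5:**
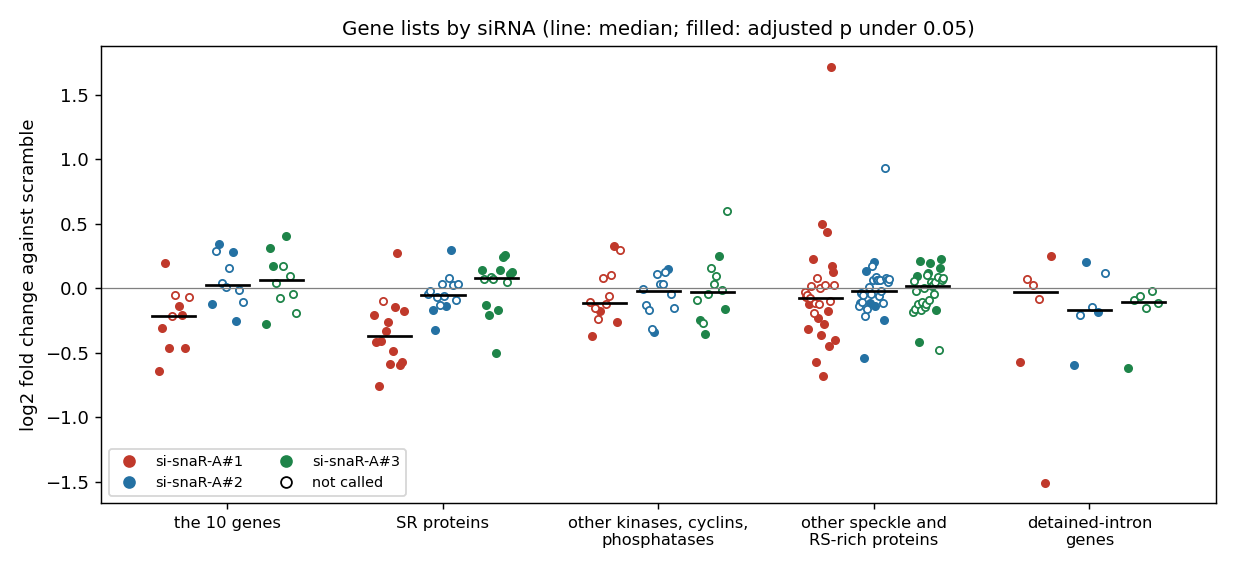
Log2 fold change against scramble (vertical axis) of the 10 genes and of 4 lists by function, by siRNA; each point is a gene, lines are medians, and filled points have an adjusted p under 0.05. The SR proteins lie lowest with siRNA #1 (median −0.37) and around 0 with siRNA #2 (median −0.05) and siRNA #3 (median 0.08).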

How the data were processed

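RNA-seq of 12 HEK293T libraries in 4 groups of 3 was analysed. The authors deposited 1 table of estimated counts per Ensembl gene, made with Trim Galore and Salmon on hg38 per the submitters' processing notes. The annotation release, the summary from transcripts to genes and the strand setting are not given in the sources used here. No value above 0 is whole, and 77.8% of those from 0.5 to 1.5 lie within 0.05 of 1. Counts were rounded to whole numbers. edgeR 4.0.16 (R 4.3.3) was run with filterByExpr, TMM scaling and the quasi-likelihood test over all 4 groups, with Benjamini-Hochberg adjustment over 21999 genes. CPM use TMM library sizes, and symbols and positions come from GENCODE 44 on GRCh38. Totals of 120 M to 180 M limit precision less than the spread between replicates, whose pairwise chi-square per degree of freedom was 19.7 to 118. P-values measure the spread between these cultures.

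The 10 genes and all lists were chosen with earlier results of these data known. Named beside them were up to 2 called genes with the largest rise and fall in each list (mean of the 3 siRNAs) and the gene most like each of the 10. The level of SRSF2, SRSF8 with siRNA #1 and the library values of listed genes were chosen after their values were seen. Alternatives were RLE and upper quartile scaling, no filter or 1 CPM, DESeq2 1.42.0, the edgeR exact test, 2 groups only, a replicate block, GC and length offsets and leaving out each library. 1 gene of a list is not reported here. The scripts were tested on simulated data. Figures used matplotlib 3.10.9.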

Additional observations from a re-analysis of the deposited data

Results flagged for a closer look

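For 7 of the 10 genes, the 3 siRNAs against the same RNA gave levels that differed by the direct test between siRNAs (edgeR quasi-likelihood, Benjamini-Hochberg), as log2 differences. There were 6 that differed between siRNA #1 and siRNA #2 (background 46.7% of tested genes called): CLK1 by −0.52, CLK2 by −0.60, CLK3 by −0.15, CLK4 by −0.51, SRPK1 by −0.42 and SRRM1 by −0.45. All were lower with siRNA #1. Among genes of at least 10 CPM, 64.1% were called in this comparison. The like shares were 66% between siRNA #1 and siRNA #3 and 25.6% between siRNA #2 and siRNA #3. The share of genes called in at least 1 of these comparisons was not counted. Among genes of at least 10 CPM it cannot be under the 66% of a single comparison, so 7 of 10 is not set apart from it.

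Between siRNA #1 and siRNA #3 (background 48.6%), CLK1 differed by −0.37, CLK2 by −0.63, CLK4 by −0.50, SRPK1 by −0.54, SRPK2 by −0.30 and SRRM1 by −0.42, again lower with siRNA #1.

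Between siRNA #2 and siRNA #3 (background 15.6%), CLK1 was higher with siRNA #2 by 0.15 (adjusted p = 0.0233) and CLK3 by 0.17 (adjusted p = 0.0116), and SRPK2 was lower, at −0.34 (adjusted p = 9.95e-05). The CLK1 call was lost in 7 of 22 alternatives (adjusted p up to 0.101): no filter on low counts, GC and length offsets, and the fits without siRNA #2 replicate 1, 2 or 3 or without siRNA #3 replicate 1 or 2. The CLK3 call was lost in 2, GC and length offsets and without siRNA #2 replicate 2 (adjusted p up to 0.148). The CLK3 difference between siRNA #1 and siRNA #2 was lost in 1, upper quartile scaling (adjusted p = 0.0571).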

How the results depend on the processing

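The counts of the 10 genes called stayed within 1.5 times the main count in every alternative but 1: without siRNA #2 replicate 2, 1 gene in place of 3 was called between siRNA #2 and siRNA #3. Leaving out 1 library at a time gave 5 to 8 called with siRNA #1, 3 to 5 with siRNA #2, 3 to 5 with siRNA #3, 5 to 6 for the mean of the 3 siRNAs, 6 to 7 for each comparison of siRNA #1 with another siRNA and 1 to 4 between siRNA #2 and siRNA #3.

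The mean fall of SRPK2 was lost without scramble replicate 2 or 3 (adjusted p up to 0.0667).

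The values that changed sign were called neither as reported nor under the alternative. With siRNA #2, SRRM1 was 0.0108 under RLE scaling and 0.0108 with DESeq2, CLK4 −0.0022 under upper quartile scaling, and PNISR −0.037 under upper quartile scaling and −0.036 with GC and length offsets. CLK4 with siRNA #3 was −0.016 and −0.0058 under the same 2. With GC and length offsets, SRRM2 was −0.15 between siRNA #1 and siRNA #2, and between siRNA #1 and siRNA #3 CLK3 was −0.17, SRRM2 −0.073 and PNISR 0.045. SON between siRNA #2 and siRNA #3 was 0.00064 among genes of at least 1 CPM. The cause was not tested.

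Ranges that crossed 0 when libraries were left out, including the pair of scramble replicate 1 and siRNA #1 replicate 3 chosen after seeing the data, were −0.13 to 0.042 for SON and −0.25 to 0.078 for SRRM2 with siRNA #1. With siRNA #2 they were −0.039 to 0.022 for SRRM1, −0.17 to 0.052 for SRRM2 and −0.027 to 0.095 for PNISR. PNISR with siRNA #3 ran from −0.14 to 0.0037, and SRRM2 in the mean from −0.19 to 0.026. Between siRNA #1 and siRNA #2, SRPK2 ran from −0.00069 to 0.070 and SRRM2 from −0.17 to 0.12, and between siRNA #1 and siRNA #3 SRRM2 ran from −0.067 to 0.22. Between siRNA #2 and siRNA #3 the ranges were −0.13 to 0.078 for CLK2, −0.021 to 0.027 for CLK4 and −0.14 to 0.099 for SON.

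Correlations of same-numbered deviations ran from −0.50 to 0.53. Libraries with different numbers were not compared, so these values cannot show whether the replicate numbers pair the libraries. With the replicate as a block, 7 genes were called with siRNA #1, 3 with siRNA #2, 4 with siRNA #3 and 6 for the mean.

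Upper quartile scaling moved the share of higher among all calls from 53.2% to 40.5% with siRNA #2 and from 55.9% to 42.7% with siRNA #3. Groups of 3 in a single cell line limit what small differences can show, and the counts hold no intron or isoform level.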
